A study of Mus musculus with 16 samples.

Results

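The miRNAs described here are 45 mature miRNAs of the imprinted Dlk1-Dio3 locus of mouse chromosome 12, out of 1907 miRNAs listed in the table. They were chosen by name, as known miRNAs of that locus, and not by a rule on their values, though earlier results of these data were known. All 45 are listed, and 44 had at least 1 read in at least 1 of the 16 libraries. The RNA came from extracellular vesicles, the membrane-bound particles that cells release, collected by washing the airspaces of the lung (bronchoalveolar lavage). There were 4 groups of 4 libraries, all from C57BL/6 mice: Sdc1-/- mice given bleomycin (bleomycin Sdc1 knockout), wild-type mice given bleomycin (bleomycin wild type), uninjured Sdc1-/- mice (normal Sdc1 knockout) and uninjured wild-type mice (normal wild type). The labels give 21 days of bleomycin, a DNA-breaking drug that injures and scars the mouse lung, and PBS for the control animals. Sdc1 encodes syndecan-1, a cell-surface heparan sulfate proteoglycan of epithelial cells and plasma cells. The labels do not state whether each library came from a separate mouse or from pooled lavage, so the p-values below measure only the spread between these libraries. A miRNA table holds no Sdc1 mRNA, so the knockout labels were not checked here.

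In the Dlk1-Dio3 locus the paternal chromosome copy expresses the protein-coding genes Dlk1, Rtl1 and Dio3, and the maternal copy expresses the long noncoding RNAs Meg3, Rian and Mirg together with the miRNAs. The miRNAs lie in an upstream cluster, part of which is antisense to Rtl1, and a larger downstream cluster around Mirg. Antisense members such as miR-127 and miR-136 pair fully with the Rtl1 transcript and can direct its cleavage. The locus is best known for activity in embryo, placenta and brain.

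In the RefSeq table for GRCm38.p6, 42 of the 45 members were matched. All 42 lie on the plus strand, between chr12:109572004 and chr12:109743784, a span of 172 kb. The GENCODE annotation (release 21) puts 8 of the 42 in the exon of Rtl1 on the opposite strand, 9 in introns and 3 in exons of Mirg, 2 in introns of Rian and 20 in no long gene. The upstream cluster, from miR-673 to miR-136, held 12 members. The downstream cluster, from miR-379 onward, held 31. miR-341-3p and miR-370-3p lie between them, and the widest gap, 90.8 kb, ends at miR-379-5p. The 7 members below carry the results, either because a test called them or because they are among the 6 with the highest mean level. Each is given 5′ to 3′, with the seed (bases 2 to 8), which does most of the target recognition, in capitals. The prefix mmu, for mouse, is left out of most names in the text.
mmu-miR-127-3p: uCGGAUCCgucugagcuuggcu
mmu-miR-136-3p: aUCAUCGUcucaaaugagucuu
mmu-miR-379-5p: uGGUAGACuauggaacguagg
mmu-miR-300-3p: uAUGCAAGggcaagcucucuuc
mmu-miR-381-3p: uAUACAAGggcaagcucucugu
mmu-miR-382-5p: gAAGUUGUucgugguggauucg
mmu-miR-541-5p: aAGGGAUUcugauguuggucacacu

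The 42 matched members carry 42 distinct seeds, so the locus is not a seed family. miR-300-3p and miR-381-3p are the closest pair among them. They share 19 of 22 bases and 6 of 7 seed bases, and differ by G4A, U21G and C22U (miR-300-3p base first, positions counted from 1 at the 5′ end). How reads matching both were shared out is not given in the sources used here.

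The table could not separate some members from miRNAs of the opposite strand. Over the whole table, 25 pairs of mature miRNAs with reads overlap by at least 10 bases on opposite strands, and 20 of these pairs had identical values in every library. All 5 pairs that include a locus member were identical. They join both arms of miR-337 with miR-3544, both arms of miR-136 with miR-3071, and miR-299a-5p with miR-299b-3p. The pair that matters for the results is shown with its 19 shared positions in capitals.
mmu-miR-136-3p: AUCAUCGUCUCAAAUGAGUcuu
mmu-miR-3071-5p: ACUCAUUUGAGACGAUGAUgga
Each was listed with 1776 reads in total. Whether strand was used in counting is not given in the sources used here, so the values printed for miR-136-3p and miR-3071-5p cannot be told apart.

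Library totals ran from 1094908 to 12837837 reads, so that 1 read was worth 0.0779 to 0.913 CPM (reads scaled to the library total), and a count of 0 allows up to 0.234 to 2.74 CPM (3 reads). Such limits cover counting error only. The 3 normal libraries with the fewest reads were normal wild-type replicates 1 and 2 and normal Sdc1 knockout replicate 2. CPM are shares of a library, and a single miRNA, miR-21a-5p, took 26.5% ± 6.17 and 25.4% ± 7.92 of the reads in bleomycin Sdc1 knockout and bleomycin wild-type libraries, against 3.96% ± 0.969 and 3.91% ± 1.72 in normal Sdc1 knockout and normal wild-type libraries (SD, n = 4 each). The 7 epithelial marker miRNAs listed for the check of the tissue, the miR-200 family with miR-205 and miR-375, were all measured, and together averaged 45238 and 36086 CPM in bleomycin Sdc1 knockout and bleomycin wild-type libraries, against 55522 and 84462 CPM in normal Sdc1 knockout and normal wild-type libraries.

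Locus miRNAs were a small part of the vesicle miRNAs in every group. Their summed level averaged 272 ± 81.3 CPM in bleomycin Sdc1 knockout libraries, 383 ± 200.2 CPM in bleomycin wild-type libraries, 359 ± 197 CPM in normal Sdc1 knockout libraries and 320.2 ± 164 CPM in normal wild-type libraries (SD, n = 4 each). The sums ran from 192 to 380.3 CPM in bleomycin Sdc1 knockout libraries, from 199.7 to 666 CPM in bleomycin wild-type libraries, from 193 to 622 CPM in normal Sdc1 knockout libraries and from 177 to 553 CPM in normal wild-type libraries, so all 4 groups overlapped. In 3 of the 4 groups the library with the fewest reads had the highest sum, and the part that depth plays in the sums was not tested.

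Levels within the locus were very uneven. miR-127-3p alone averaged over 100 CPM, 7 members averaged 10 to 100 CPM, 14 averaged 1 to 10 CPM and 23 averaged under 1 CPM. With a mean of 126 CPM over all 16 libraries, mmu-miR-127-3p ranked 148 of all miRNAs, followed by mmu-miR-381-3p (26.7 CPM), mmu-miR-541-5p (26.6 CPM), mmu-miR-379-5p (22.6 CPM), mmu-miR-382-5p (22.03 CPM) and mmu-miR-136-3p (17.9 CPM). miR-381-3p and miR-541-5p ranked 228 and 229, and the 5 members after miR-127-3p do not differ from their neighbours in this order beyond the spread of their libraries. At the other end, miR-758-3p was listed at 0 in every library, miR-376c-3p had 2 reads in 1 library, and miR-369-3p had 2 reads in all.

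**Figure D1:**
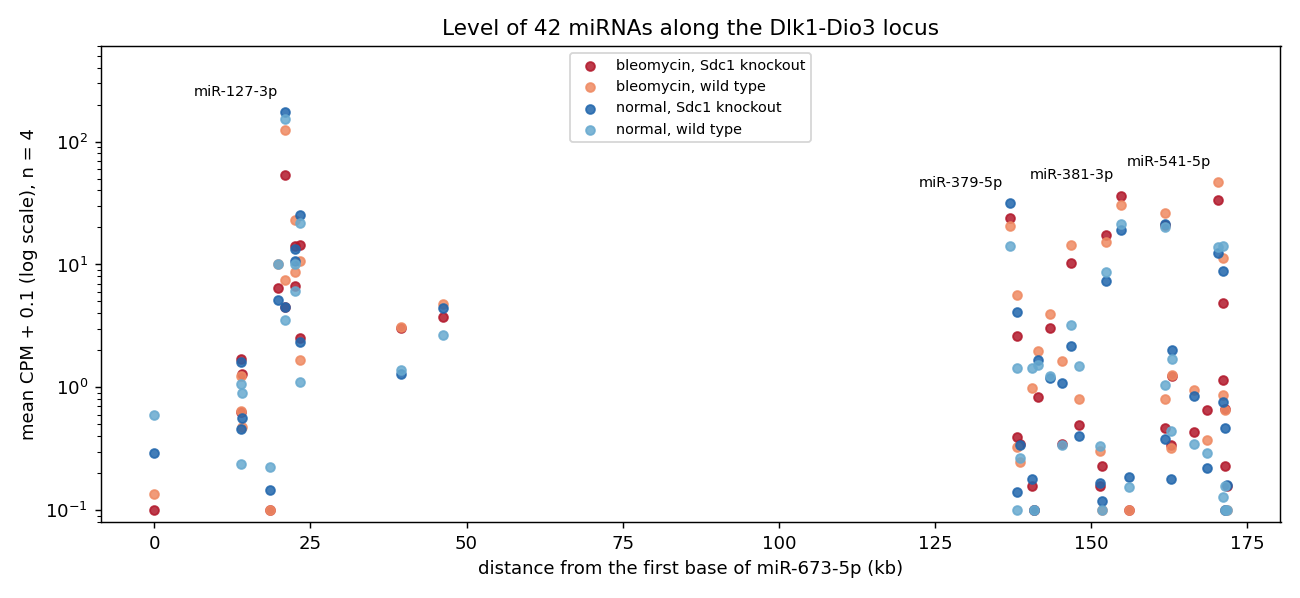
Mean level (CPM + 0.1, log scale, n = 4 libraries) of the 42 members with a matched position, in each of the 4 groups, against distance in kb from the first base of miR-673-5p. miR-127-3p stands above all other members in every group, and the labelled miR-379-5p, miR-381-3p and miR-541-5p are among the more abundant members of the downstream cluster.

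Detection was compared as observed and at equal depth. Reads were found for 15 members in all 16 libraries, for 22 in 8 to 15 libraries and for 7 in 1 to 7 libraries. A library held on average 33.2 ± 2.22 members in the bleomycin Sdc1 knockout group, 31 ± 2.16 in the bleomycin wild-type group, 35.5 ± 3.70 in the normal Sdc1 knockout group and 30.2 ± 7.04 in the normal wild-type group. Thinned to the reads of the shallowest library, the expected numbers were 25.4 and 25.3 in bleomycin Sdc1 knockout and bleomycin wild-type libraries, and 23.97 and 23.1 in normal Sdc1 knockout and normal wild-type libraries.

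The hairpins of the locus differed in how their reads were split between the arms. The 3p arm made up 95.9% of the reads of miR-127 and 91.0% of those of miR-136, and the 5p arm nearly all reads of miR-382 and miR-541. miR-434 was split more evenly, with 57.5% of its reads from the 3p arm and 39.8% to 82.1% in single libraries, as were the less covered miR-485, with 140 reads from the 5p arm and 112 from the 3p arm, and miR-329, with 107 and 102. The 3p share of miR-127 averaged 92.2% ± 2.61 and 93.7% ± 3.83 in bleomycin Sdc1 knockout and bleomycin wild-type libraries, and 97.0% ± 1.18 and 97.4% ± 1.82 in normal Sdc1 knockout and normal wild-type libraries. In Sdc1 knockout mice the ranges did not overlap, at 88.6% to 94.9% after bleomycin and 96.1% to 98.7% in normal mice. In wild-type mice they did, at 88.7% to 98.0% after bleomycin and 95.4% to 99.2% in normal mice. miR-136 and miR-409 showed the reverse, with overlap in Sdc1 knockout mice and none in wild-type mice. In wild-type mice the 3p share of miR-136 was 75.0% to 89.8% after bleomycin and 92.7% to 100% in normal mice. That of miR-409 was 88.9% to 96.7% after bleomycin and 98.3% to 100% in normal mice. The ranges of miR-434 overlapped in both genotypes. The miR-136 shares cannot be told apart from those of miR-3071, whose arms had the same values. The share of all hairpins whose ranges separate in this way was not counted. The arms carry no test here, and these ranges are a description.

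For testing, a miRNA needed 10 CPM or more in at least 4 libraries. This left 325 miRNAs and 11 of the 45 members: miR-127-3p, both arms of miR-434, miR-136-3p and miR-433-3p from the upstream cluster, and miR-379-5p, miR-300-3p, miR-381-3p, miR-382-5p, miR-541-5p and miR-409-3p from the downstream cluster. These 11 held 88.2% of the members' summed CPM. The passing member with the lowest mean was miR-433-3p at 7.89 CPM, and the highest that did not pass was miR-495-3p at 7.45 CPM. Folds below are on the scale of log2(CPM + 5), which understates the change of low miRNAs, and calls are limma's at an adjusted p (Benjamini-Hochberg over all 325) under 0.05. Since vesicles are a bulk sample, fewer vesicles of a kind and less of a miRNA per vesicle cannot be told apart.

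The first question was what bleomycin did in each genotype. In Sdc1 knockout mice 1 of the 11 tested members rose and 1 fell, against 23.4% of all tested miRNAs called in either direction (14.8% higher and 8.62% lower). In wild-type mice 1 rose and 0 fell, against 34.5% of all tested miRNAs (20% higher and 14.5% lower). Averaged over both genotypes 2 rose and 1 fell, against 45.8% (23.7% higher and 22.2% lower). Among the 11 tested members the median log2 difference was 0.11 in Sdc1 knockout mice (6 positive, 5 negative), beside 0.11 over all 325. In wild-type mice it was 0.29 (8 positive, 3 negative), beside -0.0045. Without the filter, the median over the 44 members with reads was 0.02 in Sdc1 knockout and 0.06 in wild-type mice. Over all 1358 miRNAs with reads it was 0.01 and 0.00. The unfiltered medians say little, because 23 of the 45 members averaged under 1 CPM and the added 5 CPM holds their differences near 0. None of these medians carries a test.

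The member that rose in both genotypes was miR-541-5p, from an intron of Mirg near the far end of the downstream cluster (chr12:109742422-109742446). It stood at 42.3, 32.7, 39.2 and 19.9 CPM in bleomycin Sdc1 knockout libraries and at 37.7, 50.3, 78.1 and 21.4 CPM in bleomycin wild-type libraries. Normal Sdc1 knockout libraries had 13.3, 22.5, 7.32 and 6.01 CPM, and normal wild-type libraries had 9.13, 25.4, 14.3 and 6.23 CPM. In each genotype 3 of 4 bleomycin libraries lay above all normal libraries of that genotype, and replicate 4 lay inside the normal range, below normal replicate 2. The log2 difference was 1.21 in Sdc1 knockout mice (SE 0.41, adjusted p = 0.0369, a 2.31-fold rise) and 1.45 in wild-type mice (SE 0.41, adjusted p = 0.0115, 2.73-fold), both by limma. Averaged over genotypes it was 1.33 (SE 0.29, adjusted p = 0.0010, limma). The wild-type and averaged calls held without any 1 library. The knockout call was lost without bleomycin Sdc1 knockout replicates 1, 2 or 3 or normal Sdc1 knockout replicates 1, 3 or 4, each left out alone, with adjusted p up to 0.131.

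The member that fell was miR-127-3p, the locus's most abundant miRNA, which lies antisense to Rtl1 (chr12:109592888-109592909). It had 64.9, 54.9, 44.9 and 49.7 CPM in bleomycin Sdc1 knockout libraries and 129, 124, 194 and 52.2 CPM in bleomycin wild-type libraries. Normal Sdc1 knockout libraries had 184, 335, 94.95 and 79.4 CPM, and normal wild-type libraries had 119, 295, 119.7 and 74.1 CPM. In Sdc1 knockout mice all 4 bleomycin libraries lay below all 4 normal ones, a separation that 12.3% of all tested miRNAs showed in that direction. In wild-type mice the ranges overlapped.

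The log2 difference of miR-127-3p in Sdc1 knockout mice was -1.39 (SE 0.50, adjusted p = 0.0497 by limma, 2.62-fold lower), and edgeR's quasi-likelihood test on the recovered reads gave an adjusted p of 0.0166. In wild-type mice the difference was -0.22 (limma adjusted p = 0.754). The difference between the genotypes' responses was -1.17, with a 95% interval of -2.64 to 0.31 and a limma adjusted p of 0.631, so a genotype difference was not shown. The knockout call lay close to the threshold. It was lost in 10 of 16 fits that left out 1 library (each bleomycin Sdc1 knockout library, bleomycin wild-type replicates 1 and 2, normal Sdc1 knockout replicates 1 and 2, normal wild-type replicates 1 and 3), with log2 differences between -1.68 and -1.01.

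The other arm of the same hairpin, miR-127-5p, was too low for the main test. It averaged 4.44 ± 1.28 and 7.32 ± 3.78 CPM in bleomycin Sdc1 knockout and bleomycin wild-type libraries, against 4.37 ± 1.48 and 3.46 ± 2.06 CPM in normal Sdc1 knockout and normal wild-type libraries (SD, n = 4 each). With the filter lowered to 2 CPM in 4 libraries, which admits 20 members, its log2 difference after bleomycin was 0.01 in Sdc1 knockout mice (adjusted p = 0.979, limma) and 0.52 in wild-type mice (adjusted p = 0.116, limma).

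**Figure D2:**
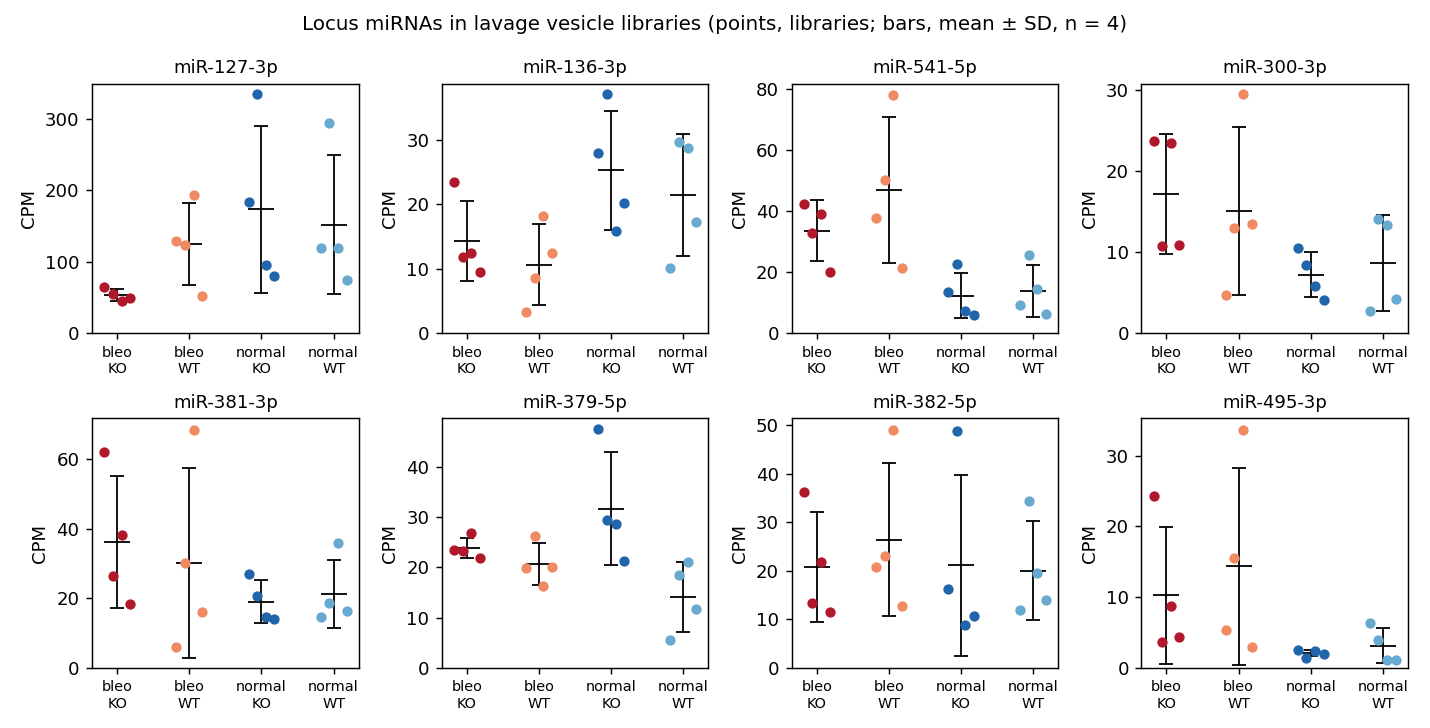
Level (CPM, linear scale, axis from 0) of 8 locus miRNAs in every library. Points are libraries, bars are the mean and SD of 4, bleo is bleomycin, KO is Sdc1 knockout and WT is wild type. miR-127-3p in bleomycin Sdc1 knockout libraries sits between 44.9 and 64.9 CPM, below every normal Sdc1 knockout library, and 6 of 8 bleomycin libraries exceed every normal library for miR-541-5p.

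Another 2 members passed the test only when both genotypes were averaged. miR-136-3p (chr12:109595366-109595387) is the other Rtl1 antisense miRNA among the 6 members with the highest mean. Both arms of miR-434 and miR-433-3p, also antisense to Rtl1, were tested and not called. miR-136-3p had 23.5, 11.8, 12.4 and 9.49 CPM in bleomycin Sdc1 knockout libraries and 3.32, 8.50, 18.2 and 12.5 CPM in bleomycin wild-type libraries. In normal Sdc1 knockout libraries it had 27.9, 37.0, 15.9 and 20.2 CPM, and in normal wild-type libraries 10.05, 29.7, 28.8 and 17.3 CPM. The ranges overlapped in both genotypes. Its averaged log2 difference was -0.71 (SE 0.26, adjusted p = 0.0322, limma), with -0.65 in Sdc1 knockout and -0.78 in wild-type mice, neither called (adjusted p = 0.223 and 0.111). The averaged call was lost in 9 of 16 fits without 1 library (bleomycin Sdc1 knockout replicates 2, 3 and 4, bleomycin wild-type replicates 1 and 2, normal Sdc1 knockout replicates 1 and 2, normal wild-type replicates 2 and 3), with adjusted p up to 0.0695.

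miR-300-3p, in the middle of the downstream cluster (chr12:109724363-109724384), had 23.8, 10.8, 23.5 and 10.8 CPM in bleomycin Sdc1 knockout libraries and 4.65, 12.9, 29.5 and 13.5 CPM in bleomycin wild-type libraries. Normal Sdc1 knockout libraries had 10.5, 8.35, 5.84 and 4.11 CPM, and normal wild-type libraries had 2.74, 14.1, 13.4 and 4.27 CPM. The groups did not overlap in Sdc1 knockout mice, where 18.5% of all tested miRNAs separated in that direction, and overlapped in wild-type mice. The averaged log2 difference was 0.68 (SE 0.27, adjusted p = 0.0498, limma). It was at the threshold, and was lost in 10 of 16 fits without 1 library (bleomycin Sdc1 knockout replicates 1 and 3, bleomycin wild-type replicates 2, 3 and 4, normal Sdc1 knockout replicates 2, 3 and 4, normal wild-type replicates 1 and 4), with adjusted p up to 0.113.

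Its near-identical neighbour miR-381-3p did not pass. It had 62.0, 26.4, 38.2 and 18.3 CPM in bleomycin Sdc1 knockout libraries and 5.98, 30.3, 68.5 and 16.03 CPM in bleomycin wild-type libraries, against 27.0, 20.7, 14.5 and 14.03 CPM in normal Sdc1 knockout libraries and 14.6, 18.8, 35.9 and 16.3 CPM in normal wild-type libraries. Its averaged log2 difference was 0.42 (SE 0.34, adjusted p = 0.314, limma). The 2 highest values, 68.5 and 62.0 CPM, came from the bleomycin libraries with the fewest reads in their groups.

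miR-379-5p, the first miRNA of the downstream cluster, and miR-382-5p, in an intron of Mirg, were not called after bleomycin in either genotype. miR-382-5p had 36.2, 13.3, 21.9 and 11.5 CPM in bleomycin Sdc1 knockout libraries and 20.8, 22.9, 49.0 and 12.6 CPM in bleomycin wild-type libraries, against 16.1, 48.7, 8.80 and 10.8 CPM in normal Sdc1 knockout libraries and 11.9, 34.4, 19.5 and 13.97 CPM in normal wild-type libraries. Its averaged log2 difference was 0.20 (SE 0.32, adjusted p = 0.641, limma). The other 5 tested members, both arms of miR-434, miR-433-3p, miR-409-3p and miR-379-5p, had averaged log2 differences between -0.29 and 0.37.

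**Figure D3:**
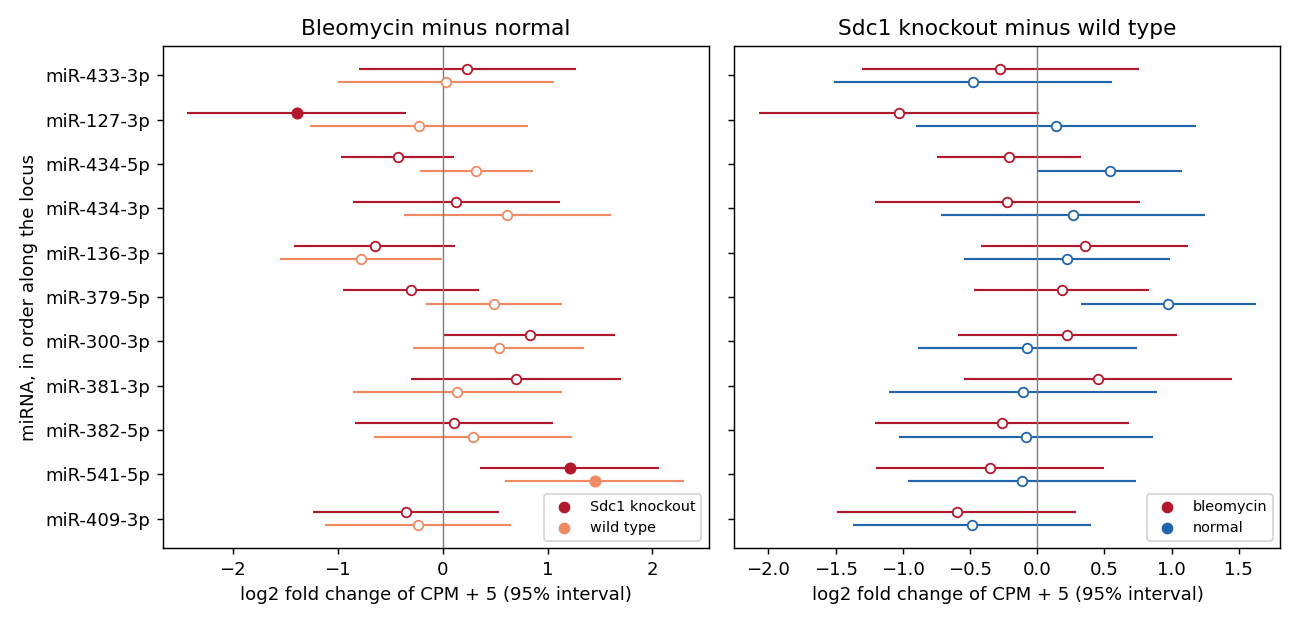
Log2 fold change of CPM + 5 with its 95% interval for the 11 tested members, in order along the locus. Left, bleomycin minus normal in Sdc1 knockout and in wild-type mice; right, Sdc1 knockout minus wild type after bleomycin and in normal mice; filled points have an adjusted p under 0.05. miR-541-5p is filled in both genotypes, miR-127-3p in Sdc1 knockout mice, and no point is filled on the right.

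Below the filter, miR-495-3p was the member closest to passing. It had 24.3, 3.59, 8.75 and 4.29 CPM in bleomycin Sdc1 knockout libraries and 5.32, 15.5, 33.6 and 2.98 CPM in bleomycin wild-type libraries. Normal Sdc1 knockout libraries had 2.50, 1.45, 2.34 and 2.004 CPM, and normal wild-type libraries had 6.39, 3.91, 1.10 and 1.15 CPM. All bleomycin Sdc1 knockout libraries lay above all normal Sdc1 knockout libraries, as they did for 19.2% of the 478 miRNAs that pass a filter of 2 CPM, and the wild-type ranges overlapped. With that filter its averaged log2 difference was 0.97 (SE 0.30, adjusted p = 0.0144, limma), where 41% of the miRNAs tested were called. It was singled out after its values were seen.

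The Dlk1-Dio3 miRNAs that the list leaves out were looked up as well. The table lists 61 others, of which 36 had reads and 2 passed the filter. Of these, miR-3071-5p had the same values as miR-136-3p in every library, as described above. The other, miR-134-5p, a brain miRNA of the downstream cluster that restrains Limk1 in neurons, averaged 20.4 ± 7.95 and 33.0 ± 35.5 CPM in bleomycin Sdc1 knockout and bleomycin wild-type libraries, against 12.2 ± 7.16 and 15.9 ± 11.1 CPM in normal Sdc1 knockout and normal wild-type libraries (SD, n = 4 each). Its log2 difference after bleomycin was 0.58 in Sdc1 knockout mice (adjusted p = 0.414) and 0.62 in wild-type mice (adjusted p = 0.354), both by limma.

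The ratio of the downstream to the upstream cluster separated bleomycin from normal libraries, while the summed level did not. Neither was tested. miR-127-3p took 20.6% ± 4.87 of the members' reads in bleomycin Sdc1 knockout libraries and 33.0% ± 7.08 in bleomycin wild-type libraries, against 45.9% ± 5.76 in normal Sdc1 knockout and 45.7% ± 6.63 in normal wild-type libraries (SD, n = 4 each). The summed downstream cluster divided by the summed upstream cluster was 1.66, 1.38, 1.81 and 1.13 in bleomycin Sdc1 knockout libraries and 0.953, 1.01, 0.992 and 1.06 in bleomycin wild-type libraries. It was 0.558, 0.415, 0.579 and 0.544 in normal Sdc1 knockout libraries and 0.500, 0.458, 0.680 and 0.601 in normal wild-type libraries. No bleomycin library overlapped a normal one, in either genotype, and the bleomycin Sdc1 knockout libraries all lay above the bleomycin wild-type ones. The 3 normal libraries with the fewest reads had the lowest ratios of their groups, 0.415 to 0.500, and the other 5 normal libraries had 0.544 to 0.680, still below every bleomycin library. Of all single miRNAs tested, 7.69% had every bleomycin library above every normal one and 4.31% had every one below. In 3.08% every bleomycin Sdc1 knockout library lay above every bleomycin wild-type one. The share among ratios of other sets of miRNAs was not counted. The cluster ratio was formed after values were known and carries no test.

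The ratio was also taken without the pair already described. Without miR-127-3p the ratio was 2.61 to 3.36 in bleomycin Sdc1 knockout and 2.36 to 5.78 in bleomycin wild-type libraries. The normal ranges were 1.54 to 2.10 in Sdc1 knockout and 1.88 to 2.14 in wild-type libraries, still without overlap with bleomycin. The bleomycin Sdc1 knockout range then lay inside the bleomycin wild-type range, so the order of the genotypes after bleomycin was lost. Without miR-541-5p it was 0.907 to 1.40 and 0.709 to 0.839 in bleomycin Sdc1 knockout and bleomycin wild-type libraries, against 0.363 to 0.527 and 0.390 to 0.600 in normal Sdc1 knockout and normal wild-type libraries, again without overlap. Without both miRNAs the bleomycin ranges, 2.09 to 2.61 in Sdc1 knockout and 1.86 to 4.30 in wild-type libraries, lay above the normal ones of the same genotype, 1.40 to 1.90 in Sdc1 knockout and 1.70 to 1.82 in wild-type libraries. Across genotypes the lowest bleomycin wild-type value, 1.86, was below the highest normal Sdc1 knockout value, 1.90. The bleomycin Sdc1 knockout range again lay inside the bleomycin wild-type range.

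**Figure D4:**
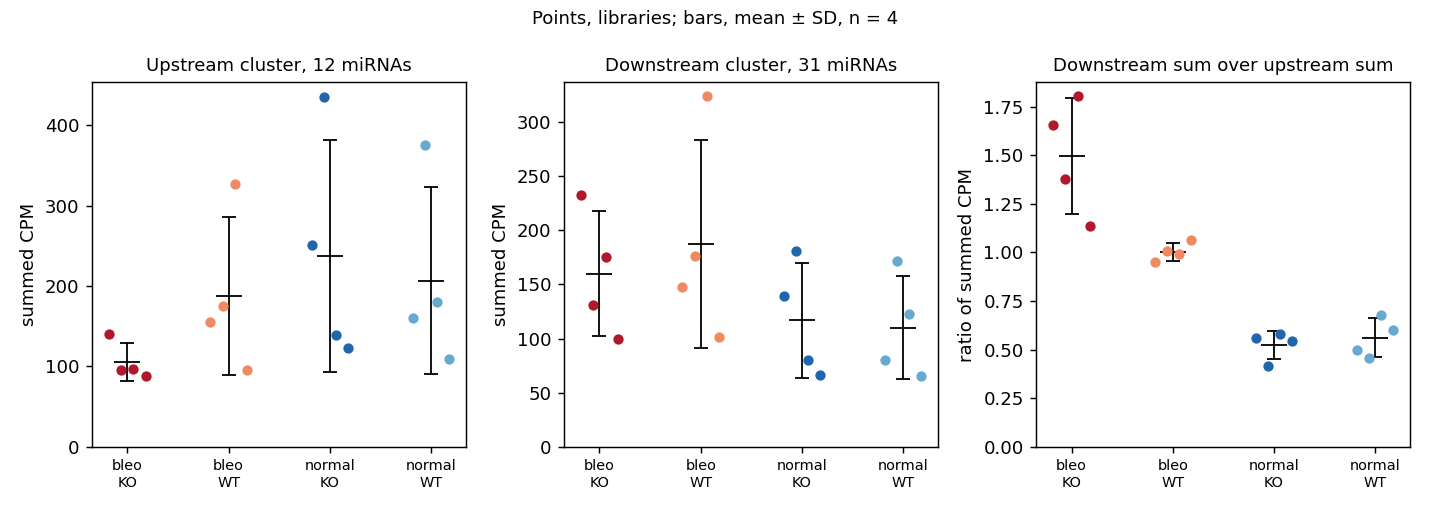
Summed CPM of the upstream cluster (12 miRNAs), of the downstream cluster (31 miRNAs) and the ratio of the second sum to the first, in every library. Points are libraries and bars the mean and SD of 4; bleo is bleomycin, KO is Sdc1 knockout and WT is wild type. The sums overlap between all groups, while the ratio is 1.13 to 1.81 and 0.953 to 1.06 in bleomycin Sdc1 knockout and wild-type libraries, against 0.415 to 0.579 and 0.458 to 0.680 in normal Sdc1 knockout and wild-type libraries.

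The ratio of miR-541-5p to miR-127-3p gives the same contrast in 2 miRNAs. It was 0.400 to 0.872 in bleomycin Sdc1 knockout libraries and 0.292 to 0.410 in bleomycin wild-type libraries, against 0.0672 to 0.0771 in normal Sdc1 knockout and 0.0769 to 0.120 in normal wild-type libraries. The pair was picked because its members moved in opposite directions, so this is a description.

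The second question was whether loss of Sdc1 changed the locus miRNAs. By limma none of the 11 tested members differed between Sdc1 knockout and wild type in normal mice, where 0% of all tested miRNAs were called, or after bleomycin, where 0.615% were called. The edgeR test called none in either comparison. At an unadjusted p under 0.05 limma gave 2 members in normal mice and 0 after bleomycin. For the difference between the genotypes' bleomycin responses and for the genotype difference averaged over conditions, no member was called by either tool, 0% of all tested miRNAs were called by limma, and the counts at an unadjusted p under 0.05 were 0 and 1.

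The largest genotype difference in normal mice was that of miR-379-5p. It had 47.5, 29.4, 28.6 and 21.2 CPM in normal Sdc1 knockout libraries, against 5.48, 18.4, 21.0 and 11.8 CPM in normal wild-type libraries. The groups did not overlap, a separation that 1.85% of all tested miRNAs showed in that direction, though 21.2 and 21.0 CPM nearly met. The log2 difference was 0.97 (SE 0.31, 95% interval 0.32 to 1.63), and the adjusted p was 0.222 by limma and 0.224 by edgeR. Without normal Sdc1 knockout replicate 2 the limma adjusted p was 0.0486, and over all fits without 1 library it ran from 0.0486 to 0.634. After bleomycin miR-379-5p had 23.5, 23.3, 26.7 and 21.9 CPM in Sdc1 knockout libraries, against 19.9, 26.3, 16.3 and 20.0 CPM in wild-type libraries, a log2 difference of 0.18 (adjusted p = 0.907, limma).

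The other member under an unadjusted 0.05 was miR-434-5p, with 12.6, 12.3, 10.4 and 7.38 CPM in normal Sdc1 knockout libraries, against 2.74, 5.48, 10.4 and 5.31 CPM in normal wild-type libraries. The ranges overlapped, and the log2 difference was 0.54 (SE 0.25, limma adjusted p = 0.266). For the 11 tested members the 95% intervals of the genotype difference ran from -1.51 to 1.63 in normal mice and from -2.07 to 1.45 after bleomycin, so genotype differences past 2-fold in either direction lay within the intervals of some members.

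Markers of other cell types moved with bleomycin too, by the same limma calls. Over all tested miRNAs 14.8% were called higher and 8.62% lower in Sdc1 knockout mice, and 20% and 14.5% in wild-type mice. In the average over genotypes the shares were 23.7% and 22.2%. Of the 7 mesenchymal markers, which include miR-199a and miR-214, 1 rose in Sdc1 knockout and 5 rose in wild-type mice, and 5 rose and 1, miR-145a-5p, fell in the average over genotypes. miR-145a-5p averaged 264 ± 27.5 CPM in bleomycin Sdc1 knockout and 442 ± 196 CPM in bleomycin wild-type libraries, against 801 ± 596 CPM and 729 ± 196 CPM in normal Sdc1 knockout and normal wild-type libraries (SD, n = 4 each). miR-143-3p, which makes up most of the markers' sum and was not called, averaged 32724 ± 5107 CPM and 34956 ± 6218 CPM in bleomycin Sdc1 knockout and bleomycin wild-type libraries, against 66104 ± 48906 CPM and 52997 ± 20316 CPM in normal Sdc1 knockout and normal wild-type libraries (SD, n = 4 each). The sum of the 7 ran from 41619 to 48784 CPM and from 37465 to 54788 CPM in bleomycin Sdc1 knockout and bleomycin wild-type libraries, against 21795 to 144844 CPM and 36597 to 82749 CPM in normal Sdc1 knockout and normal wild-type libraries. Of the 7 epithelial markers, 1 fell in Sdc1 knockout mice, 4 fell in wild-type mice and 4 fell in the average over genotypes. Their sum ran from 34618 to 57855 CPM and from 17398 to 53786 CPM in bleomycin Sdc1 knockout and bleomycin wild-type libraries, against 42208 to 67703 CPM and 59771 to 98883 CPM in normal Sdc1 knockout and normal wild-type libraries. Of the 5 leukocyte markers 3 rose in Sdc1 knockout mice, 2 rose and 1 fell in wild-type mice, and 3 rose and 1 fell in the average. Their sum ran from 224 to 522 CPM and from 179 to 833 CPM in bleomycin Sdc1 knockout and bleomycin wild-type libraries, against 128 to 281 CPM and 197 to 393 CPM in normal Sdc1 knockout and normal wild-type libraries. Of the 2 tested red cell markers 1 rose in each genotype, and of the 2 endothelial markers 1 rose in wild-type mice. None of the 4 muscle and liver markers was called in either genotype. In the average 1 red cell marker and 1 muscle and liver marker rose, and no endothelial marker was called.

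The neuron markers were included because the locus is active in brain. miR-124-3p was at 0 in every library, 2 of the 8 were tested, and miR-9-5p rose in both genotypes. The sum of the 8, most of it miR-128-3p, ran from 136 to 194 CPM and from 137 to 343 CPM in bleomycin Sdc1 knockout and bleomycin wild-type libraries, against 193 to 572 CPM and 129 to 558 CPM in normal Sdc1 knockout and normal wild-type libraries. The part of any of these cell types in the locus results was not tested.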

How the data were processed

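The authors deposited 1 table of CPM (reads scaled to the library total, per miRNA and library), in which every value was within 0.001 of a whole multiple of 1 read, so read counts were recovered. Per the submitters' processing notes, Bowtie2 2.2.3 and GRCh38, a human build, are named with no role; the table lists mouse miRNAs. No column lacked a sample (0). Miscounting between near-identical or antisense miRNAs would pass into the values.

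Tests used limma 3.58.1 (R 4.3.3; trend, all 16 libraries, 4 group means, 12 residual degrees of freedom) on log2(CPM + 5), with miRNAs at 10 CPM in 4 libraries and Benjamini-Hochberg over all 325. Alternatives were edgeR 4.0.16 on recovered reads, log2(CPM + 1), other filters, median-of-ratios scaling, a depth covariate, a replicate block and leaving out libraries. The code was tested on simulated data. Values per library are given for called members and the 6 with the highest mean, and for others said to be singled out; miR-434-5p and miR-127-5p were named after values were seen. Members, clusters and marker lists were chosen with earlier results of these data known. Sequences and positions are RefSeq's for GRCm38.p6.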

Additional observations from a re-analysis of the deposited data

How the results depend on the processing

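After bleomycin 2 members were called in Sdc1 knockout mice, 1 with the filter of 2 CPM, 0 with no filter on low values, 1 without the 3 shallow normal libraries (miR-541-5p), and 0 to 2 without single libraries. In wild-type mice 1 was called, 2 without a filter (miR-673-5p, with 15 reads in all, was added), and 1 to 2 without single libraries, 2 being reached without bleomycin wild-type replicate 3. Averaged over genotypes 3 were called, 2 with no filter on low values (miR-541-5p and miR-673-5p, while miR-136-3p and miR-300-3p had adjusted p of 0.0787 and 0.130, limma), 1 without the 3 shallow normal libraries (miR-541-5p), and 1 to 3 without single libraries, 1 being reached without bleomycin Sdc1 knockout replicate 3, bleomycin wild-type replicate 2 or normal Sdc1 knockout replicate 2. Between genotypes in normal mice 0 were called, and 0 to 1 without single libraries; the other 3 comparisons stayed at 0. The cause of these moves was not tested. miR-127-3p averaged over genotypes (log2 difference -0.81, adjusted p = 0.0693, limma) was called by edgeR (adjusted p = 0.0262), with median-of-ratios scaling (0.0291) and with the depth covariate (0.0102). miR-300-3p averaged over genotypes had an adjusted p of 0.0534 with a pseudocount of 1 and 0.0519 with the 2 CPM filter. No called difference changed sign; differences that were not called did, as listed after the limits. Median-of-ratios scaling moved the median of all miRNAs by -0.12 in Sdc1 knockout mice after bleomycin and by -0.14 for the difference in responses. Replicate numbers gave no sign of pairing. Deviations of same-numbered libraries correlated between -0.63 and 0.80 (mean -0.02), and 9 of 24 pairs were over 0.1. For libraries with different numbers the correlations ran from -0.79 to 0.70 (mean 0.0097), and 30 of 72 pairs were over 0.1. Only 4 of 16 libraries matched their own number best. With a replicate block the counts were 2 in Sdc1 knockout mice, 1 in wild-type mice and 4 averaged over genotypes, where miR-127-3p was added (adjusted p = 0.0397, limma), and 0 in the other 4 comparisons. Depth limits the rarest members: 23 averaged under 1 CPM, near the worth of 1 read in the shallowest library.

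Of 49 log2 differences of named members, 20 took the other sign under at least 1 alternative, 37 of these 51 sign changes without a single library; none was called either way, and the cause was not tested. After bleomycin in Sdc1 knockout mice, miR-382-5p (0.11) was at -0.0090 with median-of-ratios scaling, -0.040 by edgeR, -0.16 with the depth covariate and -0.15 to 0.53 without single libraries. In wild-type mice miR-127-3p (-0.22) was at 0.25 without the 3 shallow normal libraries and -0.49 to 0.15 without single libraries, miR-381-3p (0.14) at -0.083 and -0.33 to 0.59 in the same settings, and miR-382-5p (0.29) at -0.015 to 0.53 without single libraries. Averaged over genotypes miR-379-5p (0.09) was at -0.017 without the 3 shallow libraries and -0.037 to 0.19 without single libraries. Between genotypes in normal mice the ranges without single libraries were -0.24 to 0.51 for miR-127-3p, -0.024 to 0.38 for miR-136-3p (-0.087 without the 3 shallow libraries), -0.31 to 0.13 for miR-300-3p, -0.25 to 0.13 for miR-381-3p (0.017 with the depth covariate), -0.50 to 0.17 for miR-382-5p (0.016 by edgeR, 0.30 with the covariate) and -0.37 to 0.15 for miR-541-5p (0.20 with the covariate). After bleomycin they were -0.083 to 0.53 for miR-300-3p and -0.52 to 0.045 for miR-382-5p. Averaged over conditions they were -0.079 to 0.23 for miR-300-3p (-0.083 by edgeR) and -0.047 to 0.41 for miR-381-3p, and miR-382-5p was at 0.086 with the covariate. For the difference in responses they were -0.14 to 0.38 for miR-136-3p, -0.0084 to 0.60 for miR-300-3p, -0.44 to 0.25 for miR-382-5p (0.12 without the 3 shallow libraries) and -0.52 to 0.029 for miR-541-5p.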
